A study of Mus musculus with 2 samples.

Results

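Androgens, oestrogens and glucocorticoids are activated and inactivated inside the tissues they act on. A set of 10 genes encoding enzymes of this local conversion was followed in mouse dorsal skin, selected by symbol from the 32285 features of the deposited matrices: Srd5a1, Srd5a2, Srd5a3, Hsd11b1, Hsd11b2, Hsd17b4, Hsd17b12, Akr1c18, Sult1e1 and Cyp19a1. All 10 were present in both matrices. The steroid 5α-reductases turn testosterone into the stronger androgen dihydrotestosterone, the hormone through which androgenetic alopecia (AGA) develops in scalp. The 11β-hydroxysteroid dehydrogenases switch glucocorticoids on (Hsd11b1) or off (Hsd11b2), aromatase (Cyp19a1) converts androgens to oestrogens, and a sulfotransferase (Sult1e1) conjugates oestrogens so that they no longer bind their receptor.

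Single-cell RNA sequencing was performed on whole dorsal skin of male C3H/HeN mice whose backs were shaved at 7 weeks of age and whose skin was taken at 9 weeks. Con mice received vehicle, and TP mice received 0.5 mg of testosterone propionate per day under the skin, which is used as a model of AGA. Cells of 15 mice were pooled into 1 library per group, so that no replicate of either group exists, no test was run, and each ratio compares these 2 libraries. All intervals given in square brackets are exact 95% intervals for counting error only, and leave out differences between mice and between preparations. Those of levels and ratios treat each UMI as independent, so they also leave out differences between the cells of a library.

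The Con library held 45709 barcodes and the TP library 25931, of which 39076 and 18542 were kept after filters on genes, mitochondrial counts and doublets. Kept Con cells had a median of 2048 unique molecular identifiers (UMIs, each 1 captured transcript) and kept TP cells 4848, and 182 kept barcodes occurred in both libraries. Clusters built without the enzyme genes were named from marker genes as 20 cell classes, 17 of which had at least 50 cells in both libraries. In these 17 classes, 225 of 230 marker levels, each taken in 1 library, were higher inside the class than outside it, and no marker was at 0. Since the same markers gave the classes their names, this is no independent check of them. The levels that were not higher belonged to medulla-like and cycling hair matrix-like cells of both libraries and outer bulge-like cells of TP. Clusters without a name held 17.3% of Con and 5.38% of TP cells. The libraries differed in makeup: dermal fibroblast-like (DF-like) cells supplied 0.427% of Con and 3.65% of TP UMIs, interfollicular epidermis (IFE) suprabasal-like cells 17.2% and 39.6%, and inner root sheath-like cells 17.7% and 5.74%. Levels are given below as counts per 1000000 UMIs (CPM) of the cells named, and since reads come from the 3′ end of transcripts, levels of 1 gene are compared between cells and not between genes.

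Over all kept cells, Sult1e1 and Akr1c18 were the members with a higher level in TP by at least 2-fold. Sult1e1 had 19 UMIs in Con and 695 in TP, or 0.178 CPM [0.107 to 0.278] and 5.21 CPM [4.83 to 5.61], giving a ratio of 29.3 [18.6 to 49.0]. Akr1c18, whose product inactivates progesterone, had 70 and 220 UMIs, or 0.655 CPM and 1.65 CPM, giving a ratio of 2.52 [1.92 to 3.34]. A gene was called when the libraries differed 2-fold or more with 1 UMI added to each, and genes whose UMIs in both libraries summed to under 50 were not tested. By that rule 2 of 8 members tested were called, beside 18.5% of all 17571 genes tested and 8.18% of them called higher in TP. The median log2 ratio was 0.30 over these 8 members and -0.24 over all genes tested.

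The other 6 members tested differed by less than 2-fold between the libraries. Hsd11b2 had 199 UMIs in Con and 389 in TP (1.86 and 2.92 CPM), giving a ratio of 1.56 [1.32 to 1.87]. Hsd11b1 had 349 and 563 UMIs (3.27 and 4.22 CPM), giving a ratio of 1.29 [1.13 to 1.48]. Srd5a3 had 1200 and 1772 UMIs (11.2 and 13.3 CPM), giving a ratio of 1.18 [1.10 to 1.27]. For these genes the level was higher in TP by more than counting error alone gives. The remaining values lay close to 1, and each changed direction either with thinning or with a scaling factor. Srd5a1 had 3026 and 4292 UMIs (28.3 and 32.2 CPM), giving a ratio of 1.14 [1.08 to 1.19], but its log2 ratio turned from 0.18 to -0.17 when every cell was thinned to 1000 UMIs. Hsd17b4 had 5133 and 6050 UMIs (48.0 and 45.3 CPM), giving a ratio of 0.944 [0.909 to 0.980], and its log2 ratio turned from -0.08 to 0.17 with edgeR's TMM factor. Hsd17b12, with 18598 and 23523 UMIs (174 and 176 CPM), had a ratio of 1.01 [0.994 to 1.03], and its log2 ratio turned from 0.02 to -0.11 with thinning. TMM scaling kept the sign of Srd5a1 (0.43) and Hsd17b12 (0.27), and moved the median log2 ratio of all genes from -0.24 to 0.01.

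Srd5a2 and Cyp19a1 fell below the minimum of 50 UMIs. Srd5a2 had 34 UMIs in Con and 15 in TP, and Cyp19a1 had 16 and 2. Both were lower in CPM in TP, with ratios of 0.353 [0.179 to 0.666] and 0.1001 [0.0112 to 0.426]. With every cell thinned to 1000 UMIs their log2 ratios of -1.45 and -2.82 became -0.65 and -0.39.

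Class makeup moved several of these values. When the class shares of 1 library were used for both, the log2 ratio of Akr1c18 went from 1.32 to 0.17 with Con shares and to -0.15 with TP shares, so that its direction over all cells was not kept. The log2 ratio of Sult1e1 went from 4.801 to 2.03 and 1.77, and remained above 1 under both. Hsd11b1 went from 0.37 to -0.03 and -0.07, and Srd5a3 from 0.24 to -0.01 and 0.04. Hsd11b2, at 0.64, became 0.55 and 1.01, and Srd5a2, at -1.45, became -0.58 and -1.80. The call of Akr1c18 was lost under both weightings, that of Hsd11b2 was gained with the shares of TP, and that of Sult1e1 was kept under both, as the plot of the ratios by weighting shows. In a ratio over all cells, a larger share of a class and a higher level within it cannot be told apart.

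**Figure D1:**
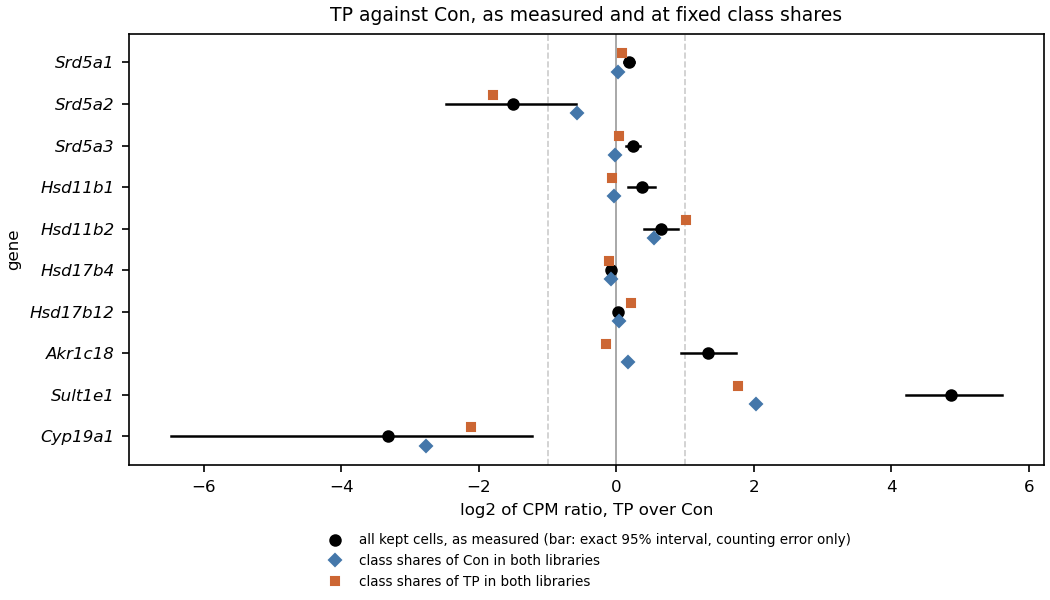
The log2 ratio of TP over Con (horizontal axis) of each of the 10 enzymes (vertical axis) over all kept cells, as black points with exact 95% intervals for counting error and no pseudocount, beside the same log2 ratio, with 1 UMI added per library, after the class shares of Con or of TP were used in both libraries. Sult1e1 stayed above 1 under each weighting, while Akr1c18 moved from 1.32 to 0.17 and -0.15.

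Across cell classes the enzymes fell into a broad and a narrow group. Srd5a1, Srd5a3, Hsd17b4 and Hsd17b12 had UMIs in all 17 classes of both libraries, and their highest class level was between 2.37 and 20.4 times the lowest. Hsd11b1, Hsd11b2, Akr1c18 and Sult1e1 were low or at 0 in most classes, with a median class level between 0 and 0.684 CPM. Within classes, 66 pairs of member and class could be tested, of which 6 were called, 3 higher and 3 lower in TP, in 4 of the 17 classes. This is 9.09% of the pairs, near the 8.37% of all 154313 pairs of gene and class tested that were called. These were Sult1e1, Akr1c18 and Srd5a1 in DF-like cells, Hsd11b1 in dermal papilla-like (DPC-like) cells, and Hsd11b2 in outer bulge-like and in cycling hair matrix-like cells.

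**Figure D2:**
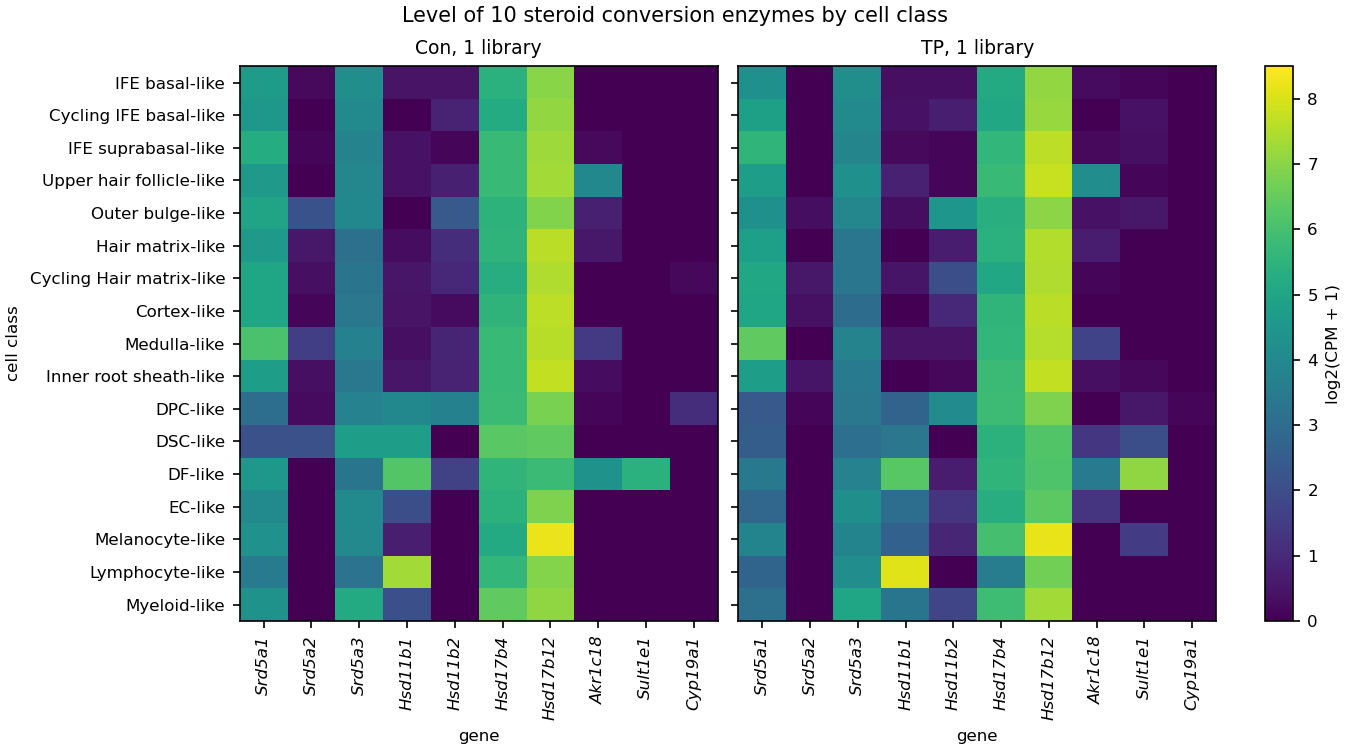
Level of the 10 enzymes (horizontal axis) in the 17 cell classes with at least 50 cells in both libraries (vertical axis; EC, endothelial; DSC, dermal sheath cup), as log2(CPM + 1) in colour, in 1 panel for Con and 1 for TP. Srd5a1, Srd5a3, Hsd17b4 and Hsd17b12 are seen in every class, and Sult1e1 mainly in DF-like cells. Hsd11b1 is highest in lymphocyte-like and DF-like cells. Next come DSC-like and DPC-like cells in Con, and DSC-like, myeloid-like, EC-like and DPC-like cells in TP.

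Of the reductases, Srd5a1 (ENSMUSG00000021594, chr13:69573449-69611485 in mm10), the type 1 enzyme known from skin and its sebaceous glands, was highest in the medulla-like class, whose markers are those of the hair medulla and companion layer. There it had 230 UMIs in Con, or 65.4 CPM [57.2 to 74.4], and 224 in TP, or 84.9 CPM [74.2 to 96.8], giving a ratio of 1.30 [1.08 to 1.57]. The intervals of all 16 other classes lay below that of the medulla-like class in both libraries. IFE suprabasal-like cells, the differentiating layers of the epidermis, came second in both, with 37.3 CPM [34.6 to 40.2] from 685 UMIs in Con and 46.2 CPM [44.4 to 48.1] from 2444 UMIs in TP, giving a ratio of 1.24 [1.14 to 1.35]. These cells held 22.6% of all Srd5a1 UMIs in Con and 56.9% in TP.

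Below these classes most neighbours in the order had overlapping intervals. In Con, cycling hair matrix-like cells (31.5 CPM), cortex-like cells (30.8 CPM) and outer bulge-like cells (30.4 CPM) did not differ beyond counting error. In all, 2 neighbouring pairs in Con and 3 in TP had intervals that did not overlap. DPC-like cells, which carry the androgen response of the follicle, were near the bottom with 7.39 CPM from 84 UMIs in Con and 4.16 CPM from 35 in TP, giving a ratio of 0.563 [0.369 to 0.845]. Srd5a1 was also lower in TP in outer bulge-like cells (30.4 and 18.2 CPM, ratio 0.6002 [0.427 to 0.859]) and in IFE basal-like cells (24.8 and 18.2 CPM, ratio 0.735 [0.590 to 0.917]), which is opposite in sign to the medulla-like and suprabasal-like classes. In DPC-like cells the 7 inner root sheath markers summed to 2150 CPM in Con and 430 CPM in TP. The 6 cycling markers summed to 452 and 93.6 CPM there. DPC-like cells held 3 clusters, described below with Hsd11b1, whose sizes differed between the libraries. In each the Srd5a1 intervals of both libraries overlapped. The part of these transcripts and of cluster sizes in the DPC-like value was not tested.

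Within the suprabasal-like class, 3 clusters differed. The cluster with the most UMIs per cell (a median of 6754 in Con and 14990 in TP) had the highest Srd5a1 level in both libraries, at 47.3 CPM [42.04 to 53.0] and 54.5 CPM [51.8 to 57.4]. The cluster with the fewest (1797 and 3046) had 32.2 CPM [25.5 to 40.0] in Con and 22.0 CPM [17.6 to 27.1] in TP. The third, with medians of 4516 and 8731, had 32.2 CPM [28.7 to 36.0] and 40.3 CPM [37.7 to 43.1]. In TP the order of the levels was that of depth, while in Con the last 2 clusters had the same level at different depths, and the part of depth in the level was not tested. After every cell was thinned to 1000 UMIs, the share of medulla-like cells with a Srd5a1 UMI was 4.83% in Con and 6.11% in TP, against 16.2% and 30.3% without thinning.

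The difference in DF-like cells ran the other way and rested on few counts. Srd5a1 had 10 UMIs in Con and 48 in TP there, or 21.9 and 9.86 CPM, giving a ratio of 0.450 [0.225 to 0.997]. In this class 12.6% of 8943 genes tested were called, and 9.68% of all genes tested were called lower in TP. The log2 ratio of -1.26 became -0.90 with a TMM factor fitted within the class and -0.98 without the 3 cells with most UMIs, both just under the 2-fold rule. With every cell thinned to 1000 UMIs it became -0.36, from 2 and 10 UMIs, or 16.3 and 17.3 CPM, the 1 UMI added per library setting its sign. Transcripts of other cells differed between the libraries in the same class: the 7 inner root sheath markers summed to 1668 CPM in Con and 351 CPM in TP, the 6 cycling markers to 517 and 156 CPM, and the 7 suprabasal markers to 1668 and 2375 CPM, with none of these markers at 0. Their part in the Srd5a1 value was not tested.

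**Figure D3:**
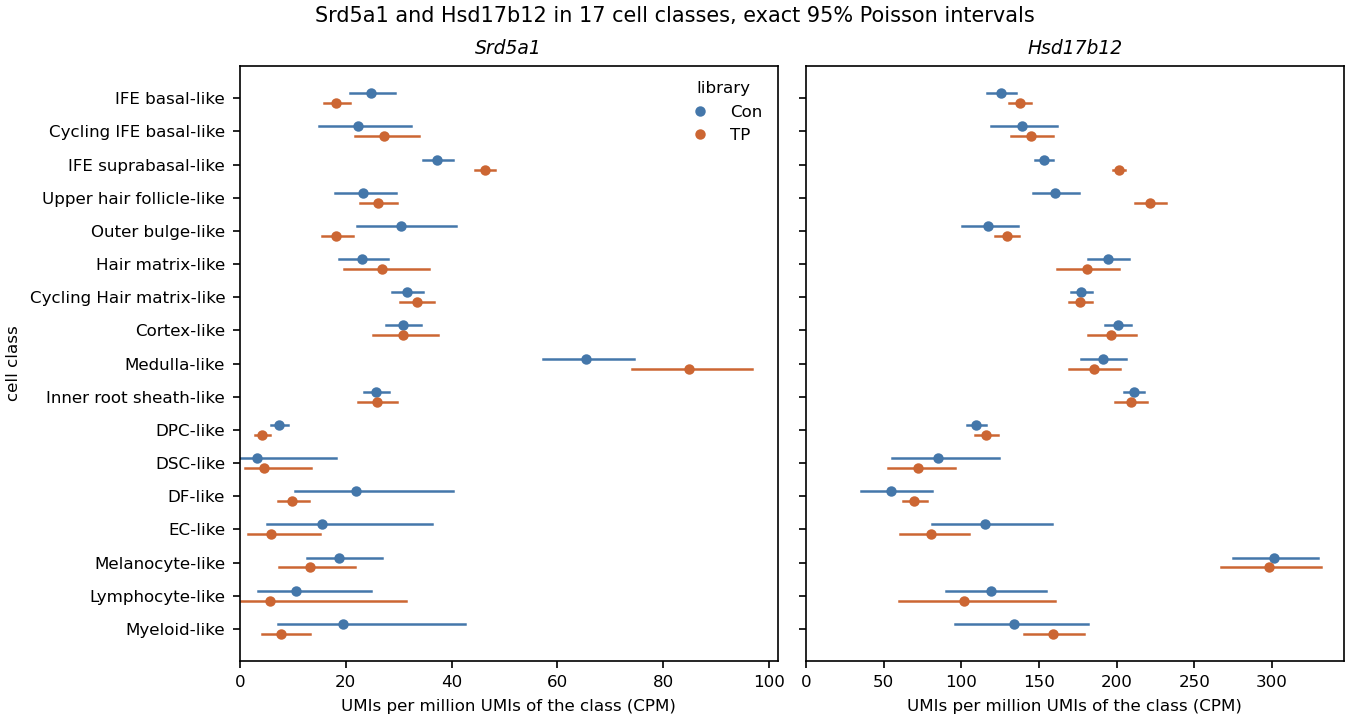
Levels in CPM (horizontal axis) of Srd5a1 and Hsd17b12 (1 panel each) in 17 cell classes (vertical axis) in Con and TP, with exact 95% intervals for counting error as bars. Srd5a1 was highest in medulla-like cells in both libraries (65.4 and 84.9 CPM) and Hsd17b12 in melanocyte-like cells (301 and 298 CPM).

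Srd5a2, the type 2 reductase of the prostate and of the human follicle, was hardly detected. Of its 34 Con UMIs, 7 were in medulla-like cells (1.99 CPM), 5 in outer bulge-like cells (3.45 CPM) and 5 in inner root sheath-like cells. Of its 15 TP UMIs, 6 were in cycling hair matrix-like and 3 in inner root sheath-like cells. No class in either library had a share of cells with a UMI above that of the inner root sheath-like class after thinning. By level, the intervals of 6 classes in Con and of 1 in TP lay below that of the leading class. These rest on few UMIs, and no neighbours were apart, so no full order of classes can be read.

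Srd5a3 acts mainly in making dolichol for protein glycosylation, and was the most evenly spread reductase. Its class levels ran from 7.76 to 35.9 CPM in Con and from 6.96 to 31.7 CPM in TP, with myeloid-like cells highest in both. Myeloid-like cells had 11 UMIs in Con, 35.9 CPM [17.9 to 64.2], and 53 in TP, 31.7 CPM [23.7 to 41.4]. The intervals of 7 other classes in Con and of 14 in TP lay below this. No class was called for Srd5a3 between the libraries.

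Of the 11β-hydroxysteroid dehydrogenases, Hsd11b1 (ENSMUSG00000016194, chr1:193221640-193264045), which regenerates active glucocorticoid, had most of its UMIs in lymphocyte-like, DF-like and DPC-like cells. By level, dermal sheath cup-like cells came between DF-like and DPC-like cells in both libraries, with 8 UMIs or 26.2 CPM [11.3 to 51.5] in Con and 6 UMIs or 9.24 CPM [3.39 to 20.1] in TP, and in TP myeloid-like (8.96 CPM) and endothelial-like cells (7.43 CPM) also stood above DPC-like cells, all with intervals that overlapped that of DPC-like cells. Lymphocyte-like cells, named from markers of T and natural killer cells, had the highest level in both libraries among the classes compared. They held 74 UMIs in 243 Con cells, or 158 CPM [124 to 198], and 48 UMIs in 66 TP cells, or 271 CPM [200 to 359], giving a ratio of 1.72 [1.17 to 2.503]. The largest subcluster of this class was not the same in each library. That of Con had 97 Con and 13 TP cells (251 CPM [180 to 342] and 420 CPM [224 to 718]) and that of TP had 26 and 30 (97.6 CPM [31.7 to 228] and 293 CPM [192 to 430]). Another had 70 and 20 cells (219 and 291 CPM), and the last, with 66.0 CPM in Con, had 50 Con and 3 TP cells. In all 4 the intervals of both libraries overlapped, and the part of this makeup in the class ratio was not tested. DF-like cells had 34 UMIs in 123 Con cells, or 74.5 CPM [51.6 to 104], and 379 UMIs in 584 TP cells, or 77.9 CPM [70.2 to 86.1], giving a ratio of 1.04 [0.735 to 1.53]. The level in DF-like cells thus did not differ beyond counting error, while their share of the library's UMIs did. In lymphocyte-like cells the 7 inner root sheath markers summed to 4270 CPM in Con and 829 CPM in TP and the 7 suprabasal markers to 2069 and 4690 CPM, and their part in the ratio was not tested.

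Hsd11b1 in DPC-like cells was lower in TP. DPC-like cells form the dermal papilla, the signalling centre at the base of the follicle. They had 168 UMIs in 3910 Con cells, or 14.8 CPM [12.6 to 17.2], and 46 UMIs in 1344 TP cells, or 5.47 CPM [4.005 to 7.30], giving a ratio of 0.370 [0.261 to 0.516]. In this class 11.0% of 12781 genes tested were called and 7.22% were called lower in TP, and of the 6 members tested there Hsd11b1 was the 1 called. The cells that held the gene's UMIs differed between the libraries: in Con 48.1% were in DPC-like, 21.2% in lymphocyte-like and 9.74% in DF-like cells, and in TP 8.17%, 8.53% and 67.3%.

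The class held 3 clusters in different proportions, and Hsd11b1 differed among them. A cluster led by Ndnf and Rspo4 held 2248 of the Con and 319 of the TP cells, and had 150 and 27 Hsd11b1 UMIs, or 28.0 CPM [23.7 to 32.9] and 20.6 CPM [13.6 to 30.01]. A cluster led by Fgf10 and Kcnip4 held 1369 and 304 cells and had 2.91 CPM [1.59 to 4.89] and 3.68 CPM [1.48 to 7.59]. A cluster led by Vip and Clstn2 held 293 and 721 cells and had 3.29 CPM [0.896 to 8.42] and 2.31 CPM [1.19 to 4.03]. In each of the 3 clusters the intervals of both libraries overlapped. The part of cluster sizes in the lower value of the class was not tested. Most Con cells of the class came from the Ndnf-led cluster and most TP cells from the Vip-led cluster.

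General markers of fibroblasts and of lymphocytes, other classes with this gene, were low in DPC-like cells, but further lists were not. The 7 dermal fibroblast markers summed to 258 CPM there in Con and 168 CPM in TP, against 33040 and 46460 CPM in DF-like cells, and the 7 lymphocyte markers summed to 11.5 and 9.75 CPM, against 5128 and 4498 CPM in lymphocyte-like cells. The 8 dermal papilla markers summed to 14370 and 12460 CPM in DPC-like cells, with none at 0. The 4 perivascular fibroblast markers summed to 1342 CPM in Con and 2000 CPM in TP there, against 2159 and 2245 CPM in DF-like cells. The 4 papillary fibroblast markers summed to 1959 and 1719 CPM, against 289 and 400 CPM. Dermal sheath cup markers summed to 335 and 656 CPM in DPC-like cells. The part of these transcripts in the Hsd11b1 value was not tested.

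Shares of cells followed the levels. After thinning to 1000 UMIs, 20.2% of lymphocyte-like cells in Con and 28.1% in TP had a Hsd11b1 UMI (24.7% and 40.9% without thinning), as did 8.13% and 6.06% of DF-like cells (20.3% and 33.2%) and 1.74% and 0.476% of DPC-like cells (3.73% and 2.75%). Inner root sheath-like cells were taken as the background, and free RNA itself was not measured. They had a UMI in 0.0564% of 7092 Con cells and in 0 of 1010 TP cells. The TP count allows a share of up to 0.297% at 3 counts (the exact interval, used to compare shares, reaches 0.365%). Median UMIs per cell before thinning were 1527 and 2032 in lymphocyte-like, 3224 and 7597 in DF-like, 2417 and 5172 in DPC-like and 1821 and 4148 in inner root sheath-like cells. The shares in lymphocyte-like and DF-like cells lay above the background in both libraries and that in DPC-like cells in Con, while in TP its interval overlapped the background's. Also above it were dermal sheath cup-like cells of Con (3.19% [0.663 to 9.04]) and endothelial-like cells of TP (1.83% [0.379 to 5.25]).

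**Figure D4:**
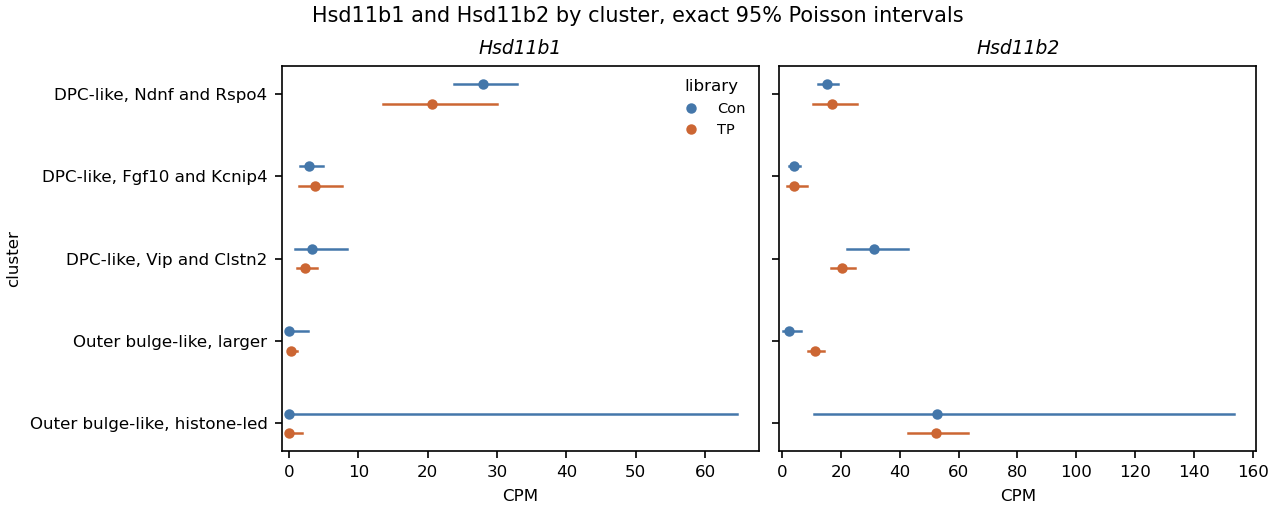
Levels in CPM (horizontal axis) of Hsd11b1 and Hsd11b2 (1 panel each) in 3 clusters of DPC-like cells and in 2 clusters of outer bulge-like cells for Con and TP, with exact 95% intervals for counting error as bars. The Ndnf-led cluster of DPC-like cells had the highest Hsd11b1 level in both libraries (28.0 and 20.6 CPM), and the larger outer bulge-like cluster differed in Hsd11b2 between them (2.19 and 11.3 CPM).

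Hsd11b2 (ENSMUSG00000031891, chr8:105518746-105523988), which inactivates glucocorticoid and is best known from the kidney, was found mainly in DPC-like cells in Con and in outer bulge-like and DPC-like cells in TP. In a finer clustering (resolution 2) the highest class level in TP was that of DPC-like cells, at 14.7 CPM. In Con 69.8% of its UMIs were in DPC-like cells, with 139 UMIs or 12.2 CPM [10.3 to 14.4]. In TP, DPC-like cells had 136 UMIs or 16.2 CPM [13.6 to 19.1], giving a ratio of 1.32 [1.04 to 1.69], and held 35.0% of the gene's UMIs. Within this class the order of the clusters was not that of Hsd11b1: the Vip-led cluster had 31.2 CPM [22.1 to 42.9] in Con and 20.4 CPM [16.7 to 24.7] in TP, the Ndnf-led cluster 15.3 CPM [12.2 to 19.0] and 16.8 CPM [10.5 to 25.4], and the Fgf10-led cluster 3.95 CPM [2.38 to 6.17] and 4.21 CPM [1.82 to 8.29]. The Vip-led cluster was above the Ndnf-led cluster beyond counting error in Con, but not in TP. In each of these clusters the intervals of both libraries overlapped, and the Vip-led cluster had the lower value in TP. It held 293 Con and 721 TP cells, and the part of cluster sizes in the class ratio was not tested.

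Outer bulge-like cells, named from stem cell markers of the follicle's outer sheath, had 6 Hsd11b2 UMIs in Con, or 4.14 CPM [1.52 to 9.02], and 183 in TP, or 21.3 CPM [18.3 to 24.6]. The ratio was 5.13 [2.31 to 14.2], in a class where 7.22% of 10875 genes tested were called and 2.86% were called higher in TP. The Con UMIs lay in 4 of 603 cells and the TP UMIs in 82 of 1587, with at most 13 in a cell, and in TP the class held 47.0% of the gene's UMIs. The 8 dermal papilla markers summed to 131 CPM in Con and 83.0 CPM in TP in outer bulge-like cells, and the part of papilla transcripts in the Hsd11b2 value was not tested.

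In a finer clustering these cells fell into a small cluster led by histone genes, with 21 Con and 202 TP cells, and a large cluster with 570 and 1377. In the small cluster Hsd11b2 had 3 UMIs in 1 Con cell, or 52.5 CPM [10.8 to 154], and 106 UMIs in 42 TP cells, or 52.3 CPM [42.8 to 63.3]. In the large cluster it had 3 UMIs in Con, or 2.19 CPM [0.451 to 6.39], and 74 UMIs in 39 TP cells, or 11.3 CPM [8.87 to 14.2]. The higher level of TP was therefore seen in the large cluster, and the small cluster, with the higher level, was also a larger part of the TP cells. As shares of cells the difference was less firm: 0.663% of Con and 5.17% of TP cells had a UMI without thinning, but 0.200% and 0.882% after it, and the thinned shares did not lie above those of inner root sheath-like cells (0.0987% and 0.0990%) beyond counting error.

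Cycling hair matrix-like cells had 14 Hsd11b2 UMIs in Con, or 0.983 CPM [0.538 to 1.65], and 40 in TP, or 3.08 CPM [2.20 to 4.19], giving a ratio of 3.13 [1.67 to 6.23], where 4.48% of genes tested in the class were called and 1.38% were called higher in TP. At resolution 0.5 and 2 the log2 ratio of 1.58 became 0.88 and 0.99, just under the 2-fold rule. Of these UMIs, 11 in Con and 38 in TP were in 1 cluster of the class. The clusters of the class held 1887 and 2345 Con cells and, in the same order, 1004 and 436 TP cells. The part of this makeup in the ratio was not tested. Median depth in the class was 2468 UMIs in Con and 8874 in TP.

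The 17β-hydroxysteroid dehydrogenases of the set were present in every class. Hsd17b4, a peroxisomal enzyme that oxidises oestradiol and shortens fatty acids, ran from 35.7 to 84.8 CPM across classes in Con, with myeloid-like cells highest, and from 11.3 to 63.3 CPM in TP. The lowest TP value, in lymphocyte-like cells, rested on 2 UMIs. Melanocyte-like cells were lowest in Con (57 UMIs, 35.7 CPM) and highest in TP (72 UMIs, 63.3 CPM [49.5 to 79.7]), giving a ratio of 1.77 [1.23 to 2.55] that was below the 2-fold rule. No neighbours in the order had intervals apart in either library, so no full order of classes can be read. The intervals of 7 classes in Con and of 5 in TP lay below that of the leading class. No class was called for Hsd17b4.

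Hsd17b12, which reduces oestrone and also acts in fatty acid elongation, was highest in melanocyte-like cells, the pigment cells of the follicle. They had 481 UMIs in Con, or 301 CPM [275 to 330], and 339 in TP, or 298 CPM [267 to 331], and all other classes lay below these intervals in both libraries. At resolution 2 a sebocyte-like cluster split from the upper hair follicle-like class led in TP, with 329 CPM [308 to 352] for Hsd17b12 and 70.4 CPM [60.8 to 81.0] for Hsd17b4, both with intervals that overlapped those of melanocyte-like cells. DF-like cells were lowest, at 54.8 and 69.8 CPM. The ratio in melanocyte-like cells was 0.988 [0.858 to 1.14]. Hsd17b12 was higher in TP by less than 2-fold in IFE suprabasal-like cells (153 and 201 CPM, ratio 1.31 [1.26 to 1.37]) and in upper hair follicle-like cells (161 and 222 CPM, ratio 1.38 [1.25 to 1.53]). All 3 suprabasal-like clusters had a higher level in TP than in Con, with 147 and 188, 135 and 172, and 182 and 226 CPM.

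Akr1c18, a 20α-hydroxysteroid dehydrogenase, belongs to a cluster of near-identical Akr1c genes on chromosome 13 whose reads may be shared or dropped in counting, so its values are uncertain. It was found in upper hair follicle-like cells and in DF-like cells. Upper hair follicle-like cells had 43 UMIs in Con, or 14.7 CPM, and 144 in TP, or 16.9 CPM, giving a ratio of 1.15 [0.811 to 1.65], and held 61.4% and 65.5% of its UMIs. After thinning, 1.02% and 0.994% of these cells had a UMI (1.99% and 4.55% without thinning, at medians of 1828 and 3954 UMIs per cell), against 0.0141% and 0 of 1010 inner root sheath-like cells. The level in these cells therefore did not differ beyond counting error, while their share of all UMIs was 2.73% in Con and 6.39% in TP.

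In DF-like cells Akr1c18 had 9 UMIs in Con, or 19.7 CPM [9.02 to 37.4], and 49 in TP, or 10.1 CPM [7.45 to 13.3], giving a ratio of 0.510 [0.248 to 1.18] that includes 1, and the log2 ratio of -1.09 became -0.73 with TMM and -0.81 at resolution 0.5, below the 2-fold rule. Thinned to 1000 UMIs a cell, 4 and 3 UMIs were left (32.5 and 5.19 CPM) and it became -2.55. The Con UMIs all came from 3 cells, so the Con level rests on these. All of the Con cells with a UMI and 46 of the 49 TP UMIs were in 1 subcluster, led by Pi16, a marker of adventitial fibroblasts, and Mfap5. That subcluster had 5 Con and 60 TP cells, with 512 CPM [234 to 972] and 111 CPM [81.1 to 148]. Pi16 was also a leading gene of other DF-like subclusters, so the marker does not set this one apart.

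Sult1e1, the oestrogen sulfotransferase (ENSMUSG00000029272, chr5:87575968-87591611), had 19 of 19 UMIs in DF-like cells in Con and 664 of 695 UMIs (95.5%) there in TP. Its level in DF-like cells was 41.6 CPM [25.1 to 65.0] in Con and 136 CPM [126 to 147] in TP, giving a ratio of 3.27 [2.08 to 5.48], in a class where 2.94% of all genes tested were called higher in TP. A UMI was found in 6 of 123 Con cells and 128 of 584 TP cells, with at most 7 and 32 UMIs in a cell. Without the 3 cells with most UMIs in each library, 3 and 582 UMIs were left (6.81 and 120.5 CPM), and the log2 ratio of 1.64 became 3.73, so the size of the difference rested on few Con cells. After thinning to 1000 UMIs the shares were 2.44% [0.506 to 6.96] and 9.52% [7.25 to 12.2] (4.88% and 21.9% without thinning), against 0 of 7092 Con inner root sheath-like cells, which allows a share of up to 0.0423% at 3 counts (the exact interval reaches 0.052%), and 0.0990% in TP. Neither the intervals of the levels nor those of the thinned shares overlapped between the libraries. The inner root sheath markers in these cells stood at 1668 CPM in Con and 351 CPM in TP, as given for Srd5a1, and Sult1e1 had no UMI in inner root sheath-like cells of Con.

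The DF-like cells were split into subclusters, among which Sult1e1 differed. In the subcluster led by C7 and Agt, perivascular fibroblast markers, it had 0 UMIs in 15 Con cells and 268 UMIs in 87 TP cells, or 386 CPM [341 to 435]. This TP level was 7.14 times that of 3 UMIs in the subcluster's Con cells, a floor that leaves out the counting error of TP. In the largest Con subcluster it had 0 UMIs in 55 Con cells and 63 in 109 TP cells, or 133 CPM [102 to 171]. That was 6.74 times the level of 3 UMIs in its own Con cells. A further subcluster with 18 and 62 cells had 2 and 63 UMIs, or 26.3 and 118 CPM, giving a ratio of 4.49 [1.19 to 37.9]. In these 3 subclusters the TP level was higher beyond counting error or beyond the floor. C7 was also a leading gene of other DF-like subclusters, among them the largest Con subcluster.

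Other subclusters did not show this. The Pi16-led subcluster had 7 UMIs in 1 of 5 Con cells, or 398 CPM [160 to 820], and 112 UMIs in 60 TP cells, or 270 CPM [222 to 324]. Another had 10 UMIs in 11 Con cells, or 214 CPM [103 to 394], and 122 UMIs in 65 TP cells, or 218 CPM [181 to 260]. In both the libraries did not differ beyond counting error. The largest TP subcluster, with 17 Con and 144 TP cells, had 0 and 36 UMIs, at 21.9 CPM in TP, which lay under the level of 3 UMIs in its Con cells. The last, with 2 Con and 57 TP cells, had 0 UMIs in both.

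**Figure D5:**
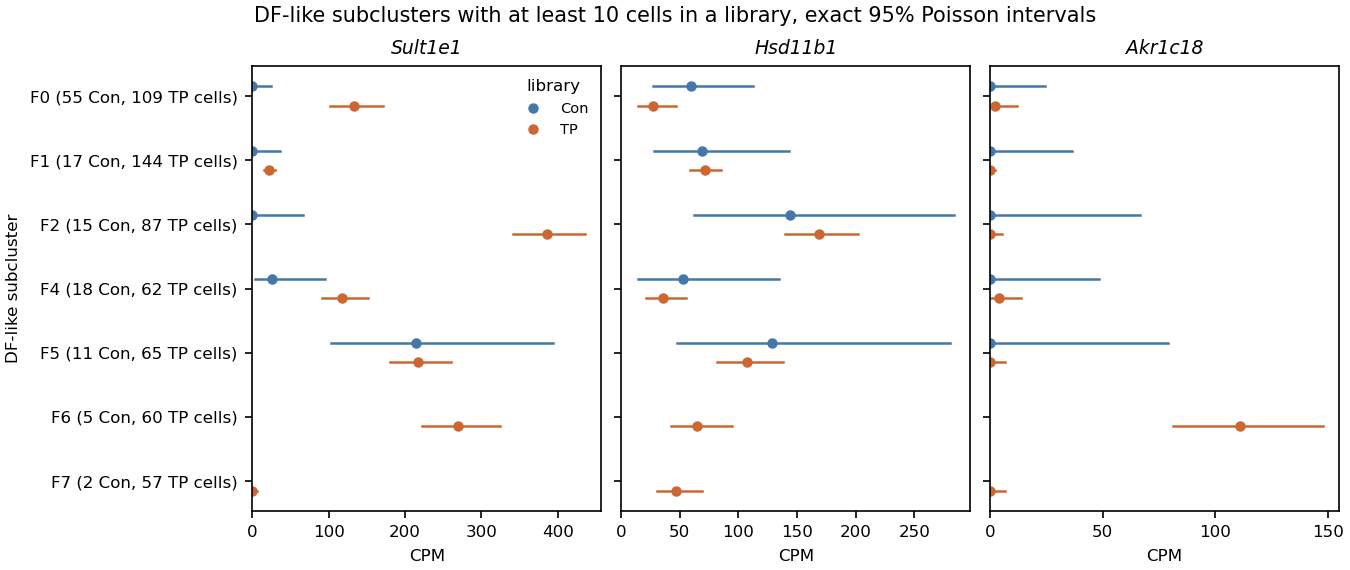
Levels in CPM (horizontal axis, 1 panel each) of Sult1e1, Hsd11b1 and Akr1c18 in the 7 subclusters of DF-like cells (F0 to F7, without F3, which had no class name, each with the cells of each library) in Con and TP, with exact 95% intervals for counting error as bars and libraries with fewer than 10 cells of a subcluster left out. Sult1e1 was highest in TP in F2, the subcluster led by C7 and Agt (386 CPM), and Akr1c18 in F6, led by Pi16 and Mfap5 (111 CPM).

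Hsd11b1 followed another order over the same subclusters in TP. It was highest in the C7-led subcluster, with 117 UMIs and 169 CPM [139 to 202], where Con had 8 UMIs and 144 CPM [62.2 to 284]. It was lowest in the largest Con subcluster, with 27.5 CPM [14.7 to 47.1] in TP and 59.4 CPM [27.2 to 113] in Con. In the Pi16-led subcluster it had 27 UMIs in TP, or 65.0 CPM [42.8 to 94.6], and 0 in 5 Con cells. The C7-led subcluster thus held the highest TP level of both Sult1e1 and Hsd11b1, with no higher Hsd11b1 level than in Con beyond counting error.

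Cyp19a1, the aromatase, was found at 16 UMIs in Con, 13 of them (81.2%) in 12 DPC-like cells, or 1.14 CPM [0.609 to 1.96]. In TP it had 2 UMIs, 1 in a DPC-like and 1 in an IFE suprabasal-like cell. The DPC-like level was 0.119 CPM [0.00301 to 0.663] in TP, giving a ratio of 0.104 [0.00245 to 0.692] from 13 and 1 UMIs. Of the Con UMIs, 8 were in the Fgf10-led, 4 in the Ndnf-led and 1 in the Vip-led cluster. The sizes of these clusters differed between the libraries as given for Hsd11b1, and their part in the ratio was not tested. After thinning, 4 of 3557 Con DPC-like cells (0.112% [0.0306 to 0.288]) and 1 of 1261 TP cells (0.0793% [0.00201 to 0.441]) had a UMI (0.307% and 0.0744% without thinning), and the intervals of the thinned shares overlapped. No class in either library had a thinned share above that of the inner root sheath-like class.

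The genes whose levels most resembled those of each member over the 34 class and library sums were listed as a description, without a test, among 12225 genes with at least 500 UMIs. The sums share libraries, and their depths differ. For Srd5a1 they were Hras (Pearson r 0.87), Tmem54 (0.86) and Frrs1 (0.85). For Srd5a3 they were Mpp1, Dnase1l1 and Synj1 (each 0.75). For Hsd11b1 they were Apbb1ip (0.90), Nucb1 (0.87) and Lsamp (0.86). Hsd11b2 came closest to Kcnd3 (0.79), Bves (0.76) and Lrrn3 (0.74). Hsd17b4 came closest to Nckipsd (0.84), Mfsd11 (0.83) and Iah1 (0.82), and Hsd17b12 to Psmd2 (0.83), Cdc34 (0.82) and Sub1 (0.81). Sult1e1 came closest to C7 (0.97), a perivascular fibroblast marker, Osr2 (0.93) and Cyp2f2 (0.92). Outside DF-like cells Sult1e1 had no UMI in Con and at most 3.08 CPM in TP in these classes. Its correlations therefore rest on the DF-like sums and do not tell apart genes confined to DF-like cells.

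Other genes of steroid and related lipid metabolism were followed in 8 lists of 70 genes, 68 of which were analysed. Over all kept cells 50 were tested, of which 9 were called higher and 0 lower in TP, beside 8.18% and 10.3% of all genes tested, and their median log2 ratio was -0.03. The aldo-keto and 3α-reductase list had 3 of 3 tested genes called higher, the fatty acid elongation partners of Hsd17b12 had 3 of 8, conjugation and breakdown 2 of 9 and steroid synthesis 1 of 8. No gene was called among 5 other 17β-hydroxysteroid dehydrogenases, 6 genes of NADPH supply and receptors, 8 peroxisomal partners of Hsd17b4 and 3 dolichol partners of Srd5a3.

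Of the 9 called genes, 5 had their highest level in IFE suprabasal-like cells in both libraries. Elovl4, which makes the very long fatty acids of barrier ceramides, had 10346 UMIs in Con and 41693 in TP, giving a ratio of 3.23 [3.16 to 3.30], with 72.3% and 86.2% of them in IFE suprabasal-like cells. Elovl1 (ratio 2.96) and Elovl7 (2.73) were among the 5, as were Sult2b1, the cholesterol sulfotransferase of the epidermis (2.56), and Akr1d1, the steroid 5β-reductase (43 and 264 UMIs, 4.92). With class shares held equal, the log2 ratio of Akr1d1 went from 2.27 to 1.32 and 1.23 with the shares of Con and TP and stayed called. Elovl4 went from 1.69 to 0.84 and 0.76, Elovl7 from 1.45 to 0.64 and 0.65 and Sult2b1 from 1.36 to 0.66 and 0.82, none of them called any more, and Elovl1 from 1.57 to 0.90 and 1.06.

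Of the other 4, Akr1c14 had 20 and 67 UMIs. Cyp17a1, the enzyme that makes androgen precursors, had 154 and 615 UMIs, giving a ratio of 3.20 [2.68 to 3.84], and its log2 ratio of 1.67 became 0.78 and 0.67 with equal class shares, no longer called under either. Its highest level was in IFE suprabasal-like cells in Con (5.83 CPM, 69.5% of its UMIs) and in upper hair follicle-like cells in TP (11.8 CPM, 16.4%). Dhrs9, a retinol and 3α-hydroxysteroid dehydrogenase, was highest in outer bulge-like cells (131 CPM in Con and 31.0 CPM in TP), so that a ratio of 2.38 over all cells stood beside a lower level in its leading class. Its log2 ratio with equal class shares was 0.07 with those of Con and -0.47 with those of TP. Cyp7b1, a hydroxylase of oxysterols and steroids, was highest in DF-like cells (76.7 and 61.8 CPM) and had a ratio of 2.496 over all cells, its log2 ratio of 1.31 becoming 1.12 with the class shares of Con and 0.08 with those of TP, where it was no longer called.

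Within DPC-like cells 41 list genes were tested, of which 0 were called higher and 6 lower in TP, beside 3.79% and 7.22% of all genes tested there. Esr1, the oestrogen receptor, had 1652 and 542 UMIs, or 145 and 64.4 CPM, giving a ratio of 0.444 [0.402 to 0.489]. Cyp1b1, which hydroxylates oestrogens, had 716 and 183 UMIs, giving a ratio of 0.346 [0.292 to 0.407]. H6pd, which supplies the NADPH that drives Hsd11b1, had 233 and 83 UMIs, or 20.5 and 9.87 CPM, giving a ratio of 0.482 [0.370 to 0.621]. Hacd3, a dehydratase of fatty acid elongation, had a ratio of 0.454 [0.411 to 0.501]. These lower values stood in the same class and in the same direction as Hsd11b1, and the clusters of the class differed in size between the libraries as given for it. The 2 others called were Hsd17b14 and Ugt1a6a, with fewer than 200 UMIs. The median log2 ratio over the 41 list genes was -0.11, beside -0.09 over all genes tested there. Some list genes went the other way by less than 2-fold. Among them was Nr3c1, the glucocorticoid receptor, with 1974 and 2350 UMIs, giving a ratio of 1.61 [1.52 to 1.71].

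Within DF-like cells 31 list genes were tested, of which 1 was called higher and 2 lower in TP, shares near the 2.94% and 9.68% of all genes tested there. Hacd3 had 37 and 185 UMIs, or 81.1 and 38.0 CPM, giving a ratio of 0.469 [0.328 to 0.686], and Elovl6, which elongates palmitate, had 34 and 175 UMIs, or 74.5 and 36.0 CPM, giving a ratio of 0.482 [0.333 to 0.719]. The gene called higher was Elovl4, with 5 and 131 UMIs. No list gene of conjugation and breakdown was called there among 7 tested.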

How the data were processed

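Whole dorsal skin cells were sequenced with the 10x Genomics GEM-X 3′ v4 kit. Per the labels, the authors made the deposited files with Cell Ranger 8.0.1 on mm10, and each value is a raw UMI count for a gene in a cell barcode, with nothing scaled. TP+Ab samples were not analysed here. Barcodes needed 200 to 8000 detected genes and no more than 10% of UMIs from mitochondrial genes, and the 7.5% with the highest doublet scores against simulated doublets were removed. Cells were integrated and clustered with Seurat 5.3.0 (2000 variable genes, 30 components, resolution 1), with the 10 members and the list genes kept out of the features. Of 54 clusters and subclusters, 46 were named from marker lists (score of at least 1, at least 3 markers detected), and the limits of this naming were set after clusters were seen. The 8 unnamed ones entered the sums over all cells and no comparison between classes. UMIs were summed per class and library and divided by the total (CPM), with exact Poisson, Clopper-Pearson and conditional binomial intervals computed in SciPy 1.17.1. Ratios called at 2-fold had 1 UMI added per library. Positions are those of RefSeq (GRCm38.p6, that is mm10), matched by symbol for all 10 members. TMM factors came from edgeR 4.0.16. Shares of cells with a UMI were also taken after thinning each cell to 1000 UMIs, which left out shallower cells. Scripts were tested on simulated data. Members, lists and tests were chosen with earlier results of these data known. Named were all members, list genes with at least 200 UMIs called over all cells or in DF-like or DPC-like cells, and the 3 genes most correlated with each member of at least 500 UMIs. The subclusters described, list genes under 200 UMIs, and Nr3c1 were named after their values were seen. Hsd17b8 and Sts were not analysed here.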

Additional observations from a re-analysis of the deposited data

How the results depend on the processing

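With 1 library per group no replicate could be left out, and no paired analysis was possible because each group is 1 library. Over all kept cells 2 members were called. Without a minimum of UMIs the count was 4, with a pseudocount of 0.1 per 10000 it was 0 (442 of all genes tested, 2.52%, against 3243), and with the class shares of Con it was 1. The list genes, 9 called, gave 16, 4 and 5 under the same settings and 3 with the class shares of TP. With class shares held equal, 1 member was called with those of Con and 2 with those of TP (Hsd11b2 and Sult1e1). All genes called numbered 1451 and 1276 with these shares, and 7102 without a minimum. TMM scaling gave 1965 genes higher and 1052 lower in TP, against 1438 and 1805, and thinning 1377 and 997. Within classes, the 6 calls became 2 of 39 testable pairs when cells were thinned to 1000 UMIs (Sult1e1 in DF-like and Hsd11b1 in DPC-like cells). The other 4 had too few UMIs left to be tested, with log2 ratios of 1.25 and 2.52 for Hsd11b2 in outer bulge-like and cycling hair matrix-like cells and of -2.55 for Akr1c18 and -0.36 for Srd5a1 in DF-like cells. Of the 6 calls, 4 remained with TMM and at resolution 0.5, and 5 at resolution 2. Without the 3 cells with most UMIs 7 pairs were called, 4 of the 6 with them in the same direction. Among called values the sign changed for Akr1c18 over all cells (1.32 to -0.151 with TP shares). In DF-like cells its -1.09 became 1.372 without those 3 cells, which held all of its Con UMIs, so that Con stood at 0 and the value, fixed by the removal and the 1 UMI added, is no measure of stability. Class and gene pairs with a share above that of inner root sheath-like cells numbered 14 thinned and 25 unthinned. Of 15 leading classes, 14 were kept at resolution 0.5 and 10 at resolution 2. Of the other single-gene values over all cells 60 stayed within counting error and 29 moved, 6 of them, not called, with a change of sign (Srd5a1 and Hsd17b12 thinned, Hsd17b4 with TMM, Srd5a3 with Con shares and Hsd11b1 with both shares), and within classes 33 and 2. The mean of ln(counts per 10000 + 1) over cells, compared by sign alone, kept that of 9 members and changed that of Hsd17b4. The cause of these moves was not tested. Depth limits Srd5a2, Cyp19a1 and every value of Con DF-like cells, which are 123 cells.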

Other observations

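In the finer clustering at resolution 2, part of the upper hair follicle-like class formed a sebocyte-like cluster of 649 Con and 700 TP cells. Sebocytes are the lipid cells of the sebaceous gland. Akr1c18 had 31 and 88 UMIs in it, or 26.5 CPM [18.03 to 37.7] and 32.1 CPM [25.7 to 39.5], against 6.92 and 9.40 CPM in the remaining upper hair follicle-like cells. Hsd17b12 had 180 CPM [156 to 206] in Con and 329 CPM [308 to 352] in TP, with an interval that overlapped that of melanocyte-like cells in TP (298 CPM [267 to 331]), giving a ratio of 1.83 [1.57 to 2.14], and was 148 and 168 CPM in the remaining cells. Srd5a3 had 9.42 CPM [4.70 to 16.8] and 19.7 CPM [14.8 to 25.7], from 11 and 54 UMIs, and Hsd17b4 55.6 and 70.4 CPM. Srd5a1 had 19.7 CPM [12.5 to 29.6] and 28.4 CPM [22.5 to 35.5]. Sult1e1 and Cyp19a1 had 0 UMIs in both libraries.

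Hsd11b1 was also read in classes too small for a comparison. Skeletal muscle-like cells, 21 in Con and 18 in TP, had 187 and 195 CPM, the Con value from 5 UMIs. An unnamed cluster with 34 Con and 298 TP cells, leaning to the dermal papilla by its markers, had 4 and 19 Hsd11b1 UMIs, or 60.3 and 20.5 CPM.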
